A study of Homo sapiens with 16 samples.

Results

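The genes described here encode 7 secreted proteins of protease inhibitor families, A2M, CST1, CST3, SERPINE2, SERPINF1, TFPI and TFPI2, out of 40663 gene symbols in the table of estimated counts. They were picked by name from earlier results on the same libraries, so their levels and fold changes in the comparisons below are a description of these samples and carry no weight as independent evidence. Most members of these families hold extracellular proteolysis in check, but SERPINF1 encodes a protein with the serpin fold that does not inhibit proteases. Serpins trap serine proteases by forming a covalent complex, Kunitz inhibitors plug the active site of serine proteases, cystatins block the cysteine proteases known as cathepsins, and alpha-2-macroglobulin folds around proteases of many classes. In connective tissue such inhibitors act on coagulation, plasmin formation and matrix turnover, and fibroblasts are one of their sources.

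All libraries came from Ccd18-Co, a single fibroblast line from human colon, and RNA was sequenced in bulk from 16 cultures in 4 groups of 4. Inflammatory fibroblasts were modelled by exposing the cells to 3 pulses of a cytokine mix, each lasting 72 h and followed by 96 h of recovery, and resting them for 1 week. By the labels, IL-1B was used at 0.1 ng/ml, and the other cytokines of the mix (IL-17A, TNF and OSM) at 10 ng/ml. The pulsed cells then received the solvent DMSO (here vehicle), belinostat or GSK-J4 for 5 days, and the extracts were made 2 weeks later. The labels give 250 nM for belinostat and 10 µM for GSK-J4. The paper gives a higher concentration of belinostat for its assays unless it states otherwise. For its assay of secreted CXCL5 it gives a lower concentration of GSK-J4. For bulk RNA sequencing it gives fewer replicates per group than the 4 used here. Belinostat inhibits histone deacetylases, and GSK-J4 inhibits demethylases of lysine 27 on histone H3. Unstimulated cells received DMSO and no cytokines. The numbers that name replicates (1 to 4, 13 to 16, 17 to 20 and 21 to 24) are those of the labels.

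Libraries held 14.4 to 19.5 M estimated counts. The 10 fibroblast markers were present in every group, led by DCN at a mean of 154300 to 156900 normalized counts, but other members of the list moved with the compounds. Their summed level was 534300 to 567500 in unstimulated, 554000 to 588900 in vehicle, 460700 to 548500 in belinostat and 605000 to 648200 in GSK-J4 libraries. Against vehicle, DESeq2 called 3.12% of all genes tested higher and 3.13% lower under belinostat, and 1.1% higher and 0.818% lower under GSK-J4. Under belinostat 3 of the 10 markers fell against vehicle, namely COL6A1 (log2 fold change -0.69, DESeq2 adjusted p 6.87e-25), COL1A1 (-0.29, 0.0089) and PDGFRA (-0.25, 0.000816). Under GSK-J4 3 rose, namely COL6A1 (0.37, 3.58e-06), COL1A2 (0.22, 0.000254) and COL3A1 (0.22, 0.0168). The sum was thus lower in belinostat and higher in GSK-J4 libraries than in any vehicle library, the same directions as those of SERPINF1 and A2M given below. Belinostat replicate 17 was the library least like its group, with a mean Pearson's r of 0.9957 to the other belinostat libraries across genes on the variance-stabilised scale. Of the 7 epithelial markers, KRT18 and KRT8 rose under belinostat (log2 fold changes of 0.84 and 0.36 against vehicle, DESeq2 adjusted p 1.07e-05 and 0.000249), and the summed level of the list was 1955 to 3454 in belinostat libraries and 1543 to 1951 in vehicle libraries. For KRT18 the belinostat (1434 to 2950) and vehicle libraries (1188 to 1580) overlapped. KRT20 was at 0 and EPCAM averaged at most 2.52 normalized counts in any group. TEK at 7582 to 9322 made up most of the endothelial list, in which PECAM1 averaged at most 4.62. TEK was called higher in belinostat than in vehicle (log2 fold change 0.18, DESeq2 adjusted p 0.0437), where the libraries overlapped. In the immune list CD3E and ITGAM were at 0 in every group. Of the immune markers detected, CD68 was highest at group means of 257 to 301. CD14 averaged 71.8 in unstimulated, 141 in vehicle, 196 in belinostat and 106 in GSK-J4 cells, and was called only in belinostat against unstimulated (log2 fold change 1.45, DESeq2 adjusted p 0.00109), where the libraries overlapped. Whether these markers had a part in the values below was not tested.

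Levels of a gene are given as normalized counts, which are estimated counts divided by DESeq2's size factor of the library, and as mean ± SD over 4 libraries. Changes are log2 fold changes of DESeq2's Wald test with their standard error (SE), and a gene passed the test at a Benjamini-Hochberg adjusted p under 0.05 over all genes tested. In bulk RNA, less RNA per cell and fewer cells that carry it cannot be told apart.

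When levels were compared between genes, normalized counts were divided by the length of the transcript. In vehicle cells CST3 had the highest level at 3805 ± 350 normalized counts per kb of transcript, followed by SERPINE2 at 2355 ± 198 and SERPINF1 at 1143 ± 63.3. TFPI at 938 ± 22.1, A2M at 891 ± 151 and TFPI2 at 845 ± 97.4 per kb were neighbours whose SDs overlapped. CST1 was lowest at 241 ± 125 per kb. Under belinostat SERPINE2 (3184 ± 359) and CST3 (3153 ± 117) stood level at the top, and SERPINF1 (563 ± 55.6) and A2M (500 ± 207) fell behind TFPI (1051 ± 36.5) and TFPI2 (1043 ± 396). Under GSK-J4, A2M at 1834 ± 260, SERPINE2 at 1815 ± 68.7 and SERPINF1 at 1672 ± 241 per kb could not be placed in order.

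**Figure D1:**
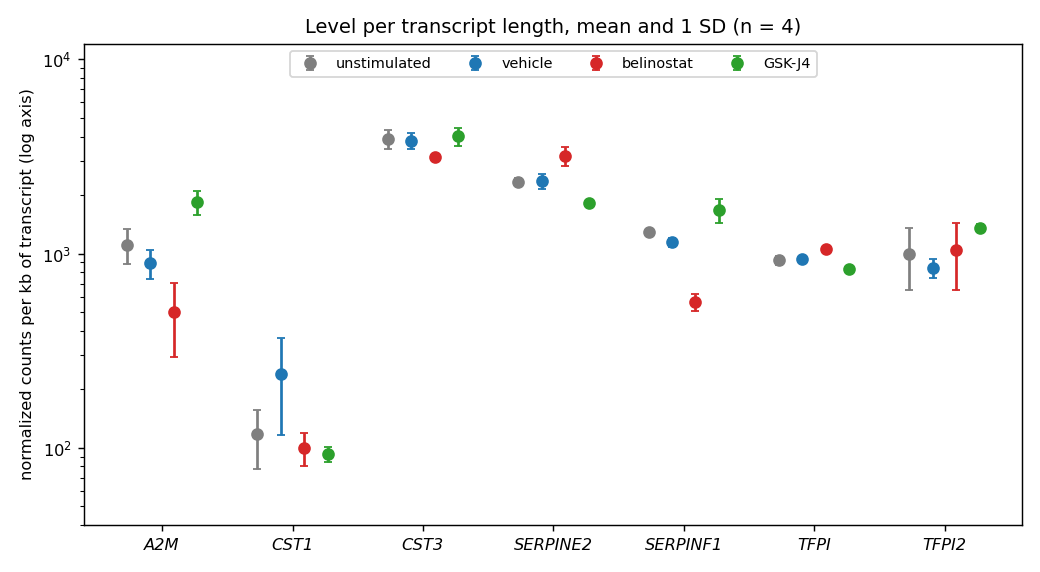
Normalized counts per kb of MANE Select transcript on a log axis for the 7 genes, in unstimulated, vehicle, belinostat and GSK-J4 cells; points are means and whiskers 1 SD (n = 4). CST3 and SERPINE2 were highest in vehicle, CST1 was lowest in every group, and A2M and SERPINF1 spread furthest between belinostat and GSK-J4.

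The first comparison, vehicle against unstimulated cells, asked what the cytokine pulses had left in these genes weeks afterwards. CST1 rose and the other 6 genes did not pass the test. Of the 7 genes 1 was called higher and 0 lower, beside 1.1% of all genes tested called higher and 0.634% called lower. edgeR's quasi-likelihood test called none of the 7, and the unadjusted DESeq2 p was under 0.05 for 1.

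Further comparisons set each compound against vehicle after the pulses. Under belinostat SERPINE2 and TFPI rose, and SERPINF1, CST1 and CST3 fell, beside 3.12% of all genes called higher and 3.13% called lower. Under GSK-J4 A2M and SERPINF1 rose, and SERPINE2, TFPI and CST1 fell, beside 1.1% called higher and 0.818% called lower. SERPINE2, SERPINF1 and TFPI therefore moved in opposite directions under the compounds, and CST1 moved in the same direction under both. Both comparisons used the same 4 vehicle libraries. Set against each other without vehicle, belinostat cells had more SERPINE2 and TFPI and less A2M, SERPINF1 and CST3 than GSK-J4 cells, beside 6.18% of genes called higher and 6.01% called lower.

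**Figure D2:**
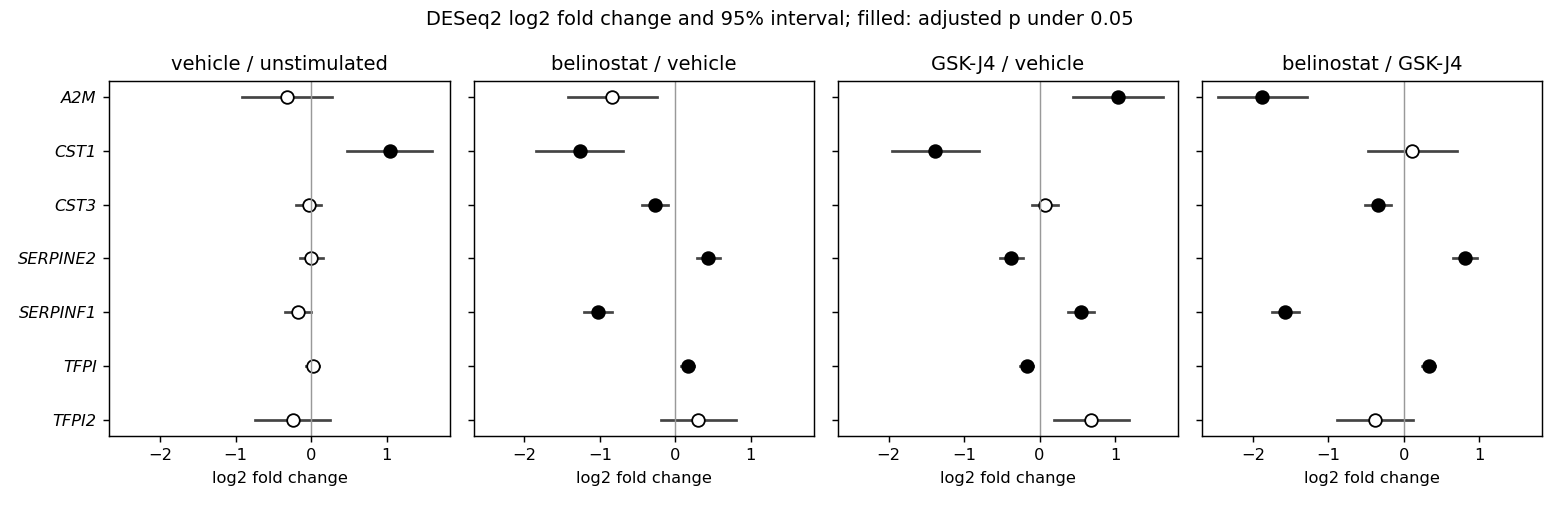
Log2 fold changes of the 7 genes in 4 comparisons, each with its 95% interval (normal approximation from the SE); filled points passed DESeq2's test at an adjusted p under 0.05. Vehicle against unstimulated has 1 filled point (CST1), and the belinostat and GSK-J4 panels mirror each other for SERPINE2, SERPINF1 and TFPI but not for CST1.

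Compared with unstimulated cells, which were not exposed to the mix, belinostat-treated cells again had higher SERPINE2 and TFPI and lower A2M, SERPINF1 and CST3, where 5.51% of genes were called higher and 4.77% lower. The CST3 call (-0.30, DESeq2 adjusted p 0.00821) was lost without unstimulated replicate 1 (-0.23, adjusted p 0.0694). GSK-J4-treated cells had higher SERPINF1 and lower SERPINE2 and TFPI than unstimulated cells, where 3.18% were called higher and 2.37% lower. For TFPI that call (-0.14, DESeq2 adjusted p 0.0273) was lost in 8 of 13 alternatives. These were edgeR (adjusted p 0.0669), the fit of only those groups (0.107), and leaving out replicate 1, 2 or 3 of unstimulated or 21, 23 or 24 of GSK-J4 (-0.15 to -0.12), and the adjusted p ran from 0.00041 to 0.141. CST1 was not called in either of these comparisons.

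SERPINE2 (ENSG00000135919.14, GRCh38 chr2:223975045-224039318, minus strand) encodes protease nexin-1, a serpin that binds thrombin, urokinase and plasmin near the cell surface. It measured 4891, 5469, 5364 and 5172 normalized counts in unstimulated replicates 1 to 4 and 4594, 5505, 5535 and 5337 in vehicle replicates 13 to 16. The belinostat replicates 17 to 20 gave 7938, 7033, 6027 and 7348, and the GSK-J4 replicates 21 to 24 gave 4263, 3924, 4008 and 3964. Every belinostat library lay above, and every GSK-J4 library below, all unstimulated and vehicle libraries, which overlapped with each other. The mean moved from 5243 ± 441 in vehicle to 7087 ± 800 under belinostat, a log2 fold change of 0.43 ± 0.08 (SE, adjusted p 2.49e-06 by DESeq2), and to 4040 ± 153 under GSK-J4, a log2 fold change of -0.38 (SE 0.08, adjusted p 0.000375). Between the compounds the log2 difference was 0.81 (SE 0.08, adjusted p 1.43e-22). Against unstimulated cells the log2 fold changes were 0.44 under belinostat and -0.37 under GSK-J4, close to those against vehicle, while vehicle and unstimulated differed by 0.01 (95% interval -0.15 to 0.16). The calls in all 5 comparisons with a compound held in each of the 13 alternatives per comparison.

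SERPINF1 (ENSG00000132386.11, GRCh38 chr17:1762029-1777565, plus strand) encodes pigment epithelium-derived factor, which has the serpin fold but does not inhibit proteases and is known as an inhibitor of blood vessel growth. Its normalized counts were 1840, 1920, 1764 and 1892 in unstimulated cells and 1724, 1712, 1532 and 1607 in vehicle. Belinostat libraries gave 692, 834, 872 and 840, and GSK-J4 libraries gave 2152, 2912, 2317 and 2233. No library of any group overlapped with another group, and the order was belinostat, vehicle, unstimulated and GSK-J4 from low to high. Belinostat lowered the mean from 1644 ± 91.0 to 810 ± 79.9, a log2 fold change of -1.02 ± 0.09 (SE, adjusted p 4.86e-25 by DESeq2), and only 0.978% of tested genes had a larger absolute change in that comparison. GSK-J4 raised it to 2404 ± 346, a log2 fold change of 0.55 (SE 0.09, adjusted p 1.19e-06). The log2 difference between the compounds was -1.57 (SE 0.09, adjusted p 3.43e-61), a level 2.97-fold lower under belinostat. Although vehicle lay below unstimulated without overlap, that log2 fold change of -0.17 (SE 0.09, adjusted p 0.588) did not pass the test. The calls with a compound held in every alternative that was run. The summed fibroblast markers were likewise lower under belinostat and higher under GSK-J4 than in vehicle, and their part in the values of SERPINF1 and A2M was not tested.

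A2M (ENSG00000175899.15, GRCh38 chr12:9067664-9116229, minus strand) encodes alpha-2-macroglobulin, which traps proteases of several classes and is cleared through the receptor LRP1. It measured 3831, 4966, 6448 and 5228 normalized counts in unstimulated cells and 4981, 3876, 4252 and 3329 in vehicle. Belinostat libraries gave 885, 2755, 2917 and 2659, and GSK-J4 libraries gave 8632, 10055, 7858 and 7271. Of the 31-base words in its MANE Select transcript, 7.93% also occur in transcripts of PZP or of the antisense gene A2M-AS1. PZP had at most 4.12 estimated counts in any library, and the level of A2M-AS1 was not examined. All GSK-J4 libraries were above, and all belinostat libraries below, those of both other groups. The rise under GSK-J4 from 4109 ± 694 to 8454 ± 1200 was a log2 fold change of 1.04 ± 0.30 (SE, adjusted p 0.0346 by DESeq2). That call was not firm. edgeR gave an adjusted p of 0.0793, and DESeq2 lost the call without vehicle replicate 14 (1.01), 15 (1.06) or 16 (0.95) or without any 1 GSK-J4 replicate (0.95 to 1.11), with adjusted p between 1.37e-08 and 0.221 over the 13 alternatives. DESeq2 kept the call with TMM or total-count size factors, with the low-count filter and without vehicle replicate 13. These fits held all 4 groups, as did those that lost the call. The call was also kept when only the vehicle and GSK-J4 libraries were fitted. Whether belinostat replicate 17 (885) had a part in the lost calls was not tested.

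Under belinostat the mean of A2M was 2304 ± 952, a log2 fold change of -0.84 ± 0.30 (SE, adjusted p 0.0782 by DESeq2) that did not pass the test. Replicate 17, at 885, lay far below the other belinostat libraries. Without it the log2 fold change was smaller at -0.57 and passed the test (adjusted p 0.021, 0.021 to 0.272 over the alternatives). A2M was 3.67-fold lower under belinostat than under GSK-J4, a log2 difference of -1.88 (SE 0.30, adjusted p 3.12e-08) that was called in all alternatives run. It was also lower under belinostat than in unstimulated cells (-1.15, SE 0.30, adjusted p 0.00287), a call that was lost when only those groups were fitted (adjusted p 0.0565, 2.8e-05 to 0.0565 over the alternatives). GSK-J4 against unstimulated gave 0.72 (SE 0.30, DESeq2 adjusted p 0.173), with no overlap between the libraries. Of the 13 alternatives 1 called it, with adjusted p of 0.00209 to 0.41 over the alternatives.

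**Figure D3:**
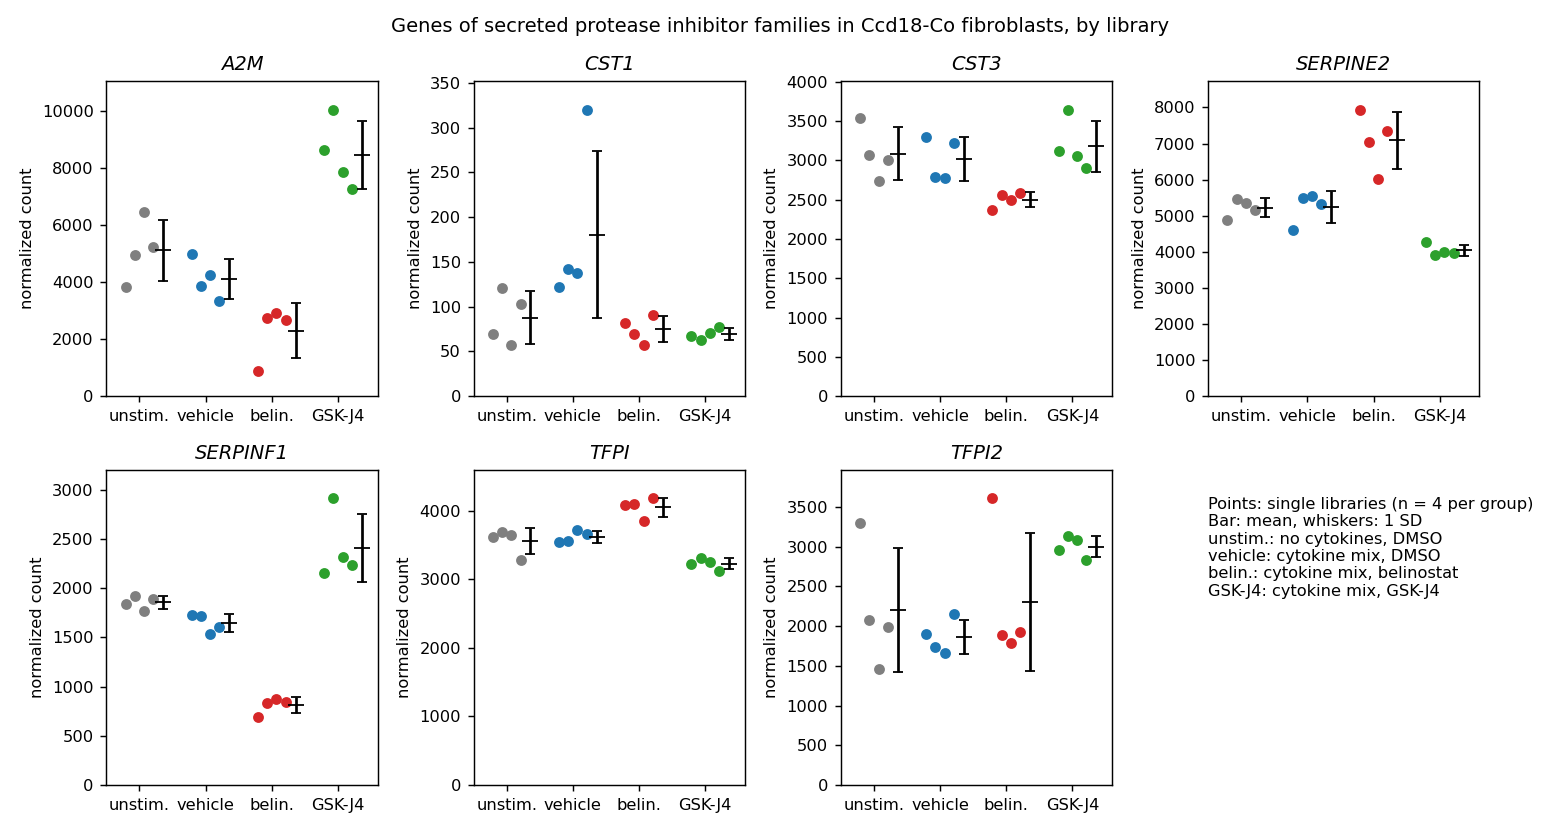
Normalized counts of each gene in every library, by group, with the mean and 1 SD (n = 4) beside the points; each vertical axis starts at 0. SERPINF1 and A2M were lowest under belinostat and highest under GSK-J4, SERPINE2 and TFPI were the reverse, and single libraries stand apart for A2M and TFPI2 (belinostat) and CST1 (vehicle).

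CST1 (ENSG00000170373.9, GRCh38 chr20:23747562-23751268, minus strand) encodes cystatin SN, an inhibitor of cysteine proteases best known from saliva. It was the least abundant of the 7, with normalized counts of 69.5, 121, 56.8 and 103 in unstimulated cells and 122, 142, 138 and 320 in vehicle. Belinostat libraries gave 82.1, 69.6, 57.2 and 90.3, and GSK-J4 libraries gave 67.1, 62.5, 70.1 and 77.6. Vehicle lay above the other groups without overlap, although its lowest library (122) was just above the highest unstimulated one (121), and the remaining groups overlapped. The mean rose from 87.7 ± 29.7 to 180 ± 93.5 after the pulses, a log2 fold change of 1.04 ± 0.29 (SE, adjusted p 0.0238 by DESeq2). The value rested in large part on vehicle replicate 16. Without it the log2 fold change was 0.61 with adjusted p 0.256, and the call was also lost without unstimulated replicate 1 (0.95) or 3 (0.88) and under edgeR (adjusted p 0.0953, with 0.00901 to 0.256 over the alternatives).

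Under both compounds CST1 was lower than in vehicle and overlapped with unstimulated cells. Against vehicle the log2 fold change was -1.27 (SE 0.29, DESeq2 adjusted p 0.000617) under belinostat and -1.38 (SE 0.29, adjusted p 0.000549) under GSK-J4. Without vehicle replicate 16 these were -0.84 and -0.95, and both still passed the test. Belinostat and GSK-J4 differed by 0.11 (95% interval -0.48 to 0.70), and against unstimulated cells the values were -0.23 (-0.81 to 0.36) and -0.34 (-0.92 to 0.25), intervals that leave room for moderate differences in either direction. CST1 belongs to a cluster of near-identical cystatin genes, and 41.7% of the 31-base words in its MANE Select transcript (GENCODE 44) also occur in transcripts of other genes, mainly CST4 and CST2. CST2 had 3.17 to 20.7 estimated counts per library, CST4 had 1.31 to 14.8 and CST5 had 0, so the division of shared reads adds an uncertainty to CST1 that its SE does not hold.

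CST3 (ENSG00000101439.9, GRCh38 chr20:23626706-23638473, minus strand) encodes cystatin C, the broadly made inhibitor of cathepsins. Normalized counts were 3535, 3062, 2740 and 3002 in unstimulated cells, 3292, 2784, 2771 and 3222 in vehicle, 2371, 2554, 2500 and 2577 under belinostat, and 3115, 3642, 3055 and 2896 under GSK-J4. The belinostat libraries lay below all others, and the other groups overlapped. The fall from 3017 ± 278 to 2500 ± 92.5 was a log2 fold change of -0.27 ± 0.09 (SE, adjusted p 0.0326 by DESeq2). It was lost under edgeR (adjusted p 0.077) and without vehicle replicate 13 (-0.23) or 16 (-0.24) or any 1 belinostat replicate (-0.29 to -0.25), with adjusted p from 0.00753 to 0.182. The difference between belinostat and GSK-J4, -0.35 (SE 0.09, adjusted p 0.00129), held in every alternative. GSK-J4 against vehicle gave 0.07 (95% interval -0.10 to 0.24) and was not called.

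The Kunitz inhibitors TFPI and TFPI2 are paralogs with different targets. TFPI (ENSG00000003436.16, GRCh38 chr2:187464230-187565760, minus strand) blocks factor Xa and the complex of tissue factor with factor VIIa, which starts coagulation. TFPI2 (ENSG00000105825.14, GRCh38 chr7:93885396-93890753, minus strand) is laid down in the matrix and inhibits plasmin and trypsin. RefSeq promoter sequences were at hand for 4 of the 7 genes (CST3, SERPINE2, TFPI and TFPI2), with no entry used for A2M, CST1 and SERPINF1. The 200 bases before the start site (RefSeq, GRCh38.p14) are shown for TFPI and TFPI2 to set the paralogs side by side. They are also shown for CST3, which had the highest level per kb of transcript of the 7 in vehicle. They run 5′ to 3′ on the minus strand, end at the base before the start, and capitals mark GGGCGG on either strand.
TFPI, chr2:187554436-187554635: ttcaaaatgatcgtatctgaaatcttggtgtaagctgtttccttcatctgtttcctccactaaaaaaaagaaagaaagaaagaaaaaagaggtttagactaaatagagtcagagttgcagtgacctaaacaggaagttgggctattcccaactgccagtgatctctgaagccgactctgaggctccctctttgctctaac
TFPI2, chr7:93890754-93890953: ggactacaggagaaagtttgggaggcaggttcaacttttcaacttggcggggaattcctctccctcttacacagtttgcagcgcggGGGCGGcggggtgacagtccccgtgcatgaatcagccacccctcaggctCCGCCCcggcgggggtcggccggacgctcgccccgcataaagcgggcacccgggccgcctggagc
CST3, chr20:23637956-23638155: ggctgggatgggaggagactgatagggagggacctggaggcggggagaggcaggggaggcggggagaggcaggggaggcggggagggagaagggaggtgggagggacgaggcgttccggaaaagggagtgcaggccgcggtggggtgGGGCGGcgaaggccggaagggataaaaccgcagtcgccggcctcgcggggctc

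In the 250 bases before the start, TFPI had 2 CpG dinucleotides and a GC content of 38.4%, TFPI2 had 20 and 64.4%, and CST3 had 16 and 70.8%. The median over 35116 RefSeq promoters was 11 CpG and 58% GC. Letters were searched on both strands in the same window. GGGCGG, found in 42.6% of all promoters, occurred 2 times in TFPI2 and 1 time in CST3 but not in TFPI. TGANTCA (6.57% of promoters) and the NF-kB motif (5.21%) each occurred 1 time in TFPI2 and in neither of the others. TATAAA (10.7%) and the STAT motif TTCNNNGAA (6.57%) occurred in none of these 3. SERPINE2 had 2 entries, with 28 and 6 CpG and with GGGCGG 2 times and 1 time, neither at the start of its MANE Select transcript. These matches describe letters in a window and not binding sites.

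TFPI measured 3620, 3698, 3650 and 3277 normalized counts in unstimulated cells and 3546, 3554, 3720 and 3664 in vehicle. Under belinostat it measured 4087, 4095, 3855 and 4183, and under GSK-J4 3226, 3306, 3257 and 3118. As for SERPINE2, all belinostat libraries were above those of every other group. GSK-J4 libraries were below all vehicle libraries but overlapped with unstimulated replicate 4. The changes were small and the replicates close, with log2 fold changes of 0.16 (SE 0.04, DESeq2 adjusted p 0.00535) under belinostat and -0.17 (SE 0.04, adjusted p 0.014) under GSK-J4. The call under belinostat held in all alternatives. That under GSK-J4 was lost under edgeR (adjusted p 0.118) and on leaving out vehicle replicate 15 (-0.15) or 16 (-0.16), or replicates 21 (-0.17), 23 (-0.17) or 24 (-0.15) of GSK-J4. Its adjusted p ran from 0.00101 to 0.118. Between the compounds the difference of 0.33 (SE 0.04, adjusted p 7.32e-12) was called in all alternatives. Of the 31-base words in the TFPI transcript, 3.19% also occur in transcripts of other genes, chiefly CALCRL-AS1.

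TFPI2 did not pass the test in any of the 6 comparisons. It measured 3305, 2073, 1459 and 1987 normalized counts in unstimulated cells, 1903, 1743, 1663 and 2150 in vehicle, 3610, 1890, 1783 and 1930 under belinostat, and 2956, 3133, 3091 and 2833 under GSK-J4. GSK-J4 libraries were tightly grouped at 3003 ± 136 and lay above all vehicle libraries, at 1865 ± 215. The log2 fold change was 0.69 (SE 0.25, DESeq2 adjusted p 0.185). When only the vehicle and GSK-J4 libraries were fitted, the same difference (0.69) passed with adjusted p 5.76e-17, against 0.519 at the other end of the alternatives. The other 12 of the 13 alternatives did not call it. The spread of the groups left out of that fit was much larger, with an SD of 873 under belinostat and 781 in unstimulated cells. Whether that spread had a part in the call was not tested.

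Under belinostat replicate 17 stood apart from the other libraries, at 1783 to 1930, while in unstimulated cells replicate 1 was highest and the others still ran from 1459 to 2073. Without belinostat replicate 17, at 3610, the mean of belinostat fell to the level of vehicle (log2 fold change 0.0028 in place of 0.31) and belinostat became lower than GSK-J4 with a call (-0.68, adjusted p 0.0147, 0.0147 to 0.681 over the alternatives). Without unstimulated replicate 1, at 3305, GSK-J4 became higher than unstimulated with a call (0.71, adjusted p 0.0356, 0.0356 to 0.654 over the alternatives).

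In unstimulated, vehicle and belinostat cells the library with the highest TFPI2 had the lowest A2M. In unstimulated cells the order of the 4 libraries by A2M (1, 2, 4, 3 from low to high) was the exact reverse of their order by TFPI2, and the same held in belinostat cells (17, 20, 18, 19). In vehicle, replicate 16 had the lowest A2M and the highest TFPI2, and the others did not follow a reverse order. GSK-J4 cells were high in both genes in all 4 libraries, and their order was 24, 23, 21, 22 by A2M and 24, 21, 23, 22 by TFPI2 from low to high, so the same library was lowest, and the same one highest, in both genes. Over all genes, the unstimulated replicates furthest apart were also 1 and 3, with a mean squared deviation 31.3 times sampling noise. Belinostat replicate 17 was 26.5 to 31.6 times sampling noise from the others of its group, which were 3.69 to 4.7 times apart. Whether these library-wide differences had a part in the orders was not tested. With 4 libraries per group the orders are given as values only.

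**Figure D4:**
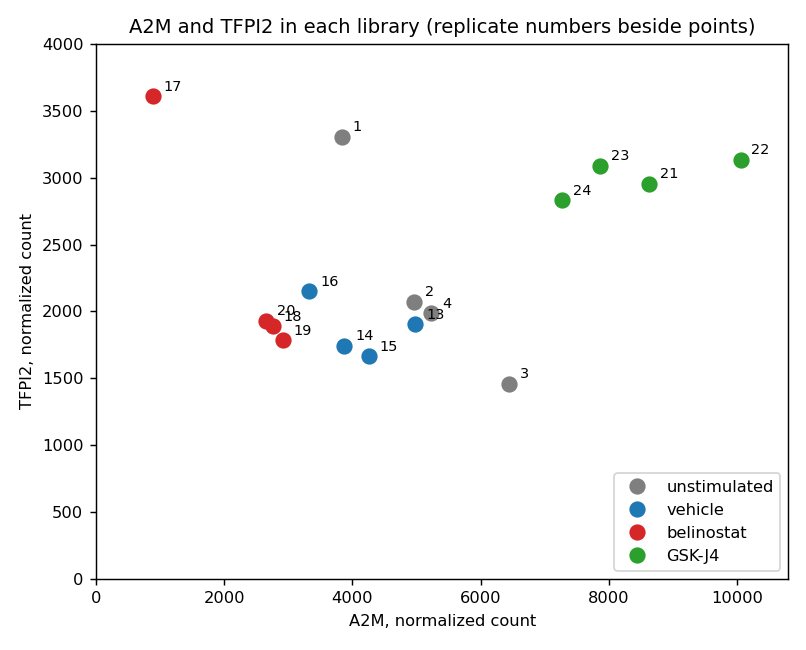
TFPI2 against A2M in normalized counts, one point per library with its replicate number, coloured by group (unstimulated, vehicle, belinostat, GSK-J4). Belinostat replicate 17 (885 for A2M and 3610 for TFPI2) and unstimulated replicate 1 (3831 and 3305) lie at the upper left of their groups, and the GSK-J4 libraries lie apart at high A2M and high TFPI2.

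Of the 7 genes, A2M, CST1 and SERPINF1 had group means that spanned at least 1 on the log2 scale (2.01, 1.25 and 1.56). For these, the genes with the most similar profile over the 16 libraries were sought among 11740 genes with a mean of at least 50 normalized counts, by the root mean square difference of log2 values centred on each gene's mean. LRIG1 (0.29) and ELOVL2 (0.37) were nearest to A2M, whose own root mean square deviation was 0.83. ELOVL2 (0.15) and LRRN4CL (0.19) were nearest to SERPINF1, with a deviation of 0.59. ANK3 (0.42) and SLC14A1 (0.47) were nearest to CST1, which is little closer than its own deviation of 0.62.

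A list of 50 other inhibitors (further serpins, cystatins, Kunitz, WAP and Kazal proteins, relatives of alpha-2-macroglobulin, and TIMPs) gives the setting for these genes. DESeq2 called none of the 23 tested after the cytokine pulses (1 had an unadjusted p under 0.05, and edgeR called 0) and none of the 13 tested under GSK-J4 (3 and 0). Under belinostat it called 3 of 15 (2 higher, 1 lower), beside 3.12% of all genes tested called higher and 3.13% called lower. SPINT1, a membrane Kunitz inhibitor, rose by 0.57, and RECK, a membrane-anchored inhibitor of metalloproteinases, by 0.15 on the log2 scale. TIMP3, an inhibitor of metalloproteinases held in the matrix, fell by 0.19. These calls were weak, with DESeq2 adjusted p of 0.0202, 0.0494 and 0.0371, and edgeR made 1 call on the list. Leaving out vehicle replicate 14, 15 or 16 or belinostat replicate 20 gave 0 calls, and leaving out belinostat replicate 19 gave 1. The median log2 fold change of the 15 was -0.01, beside 0.00 for all genes tested.

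The proteases and cofactors that these inhibitors act on were listed as well. Under belinostat 4 of 15 tested fell and none rose, beside 3.13% of all genes tested called lower and 3.12% called higher. PLAT, which encodes tissue plasminogen activator, went from 11620 ± 1350 to 5866 ± 933 normalized counts, a log2 fold change of -0.99 (DESeq2 adjusted p 1.85e-14). The cathepsin genes CTSH (-0.53), CTSL (-0.42) and CTSC (-0.31) fell as well, and the other cathepsin genes tested were not called. The calls of PLAT, CTSH, CTSL and CTSC held in every alternative. Whether they relate to the levels of CST1 and CST3 was not tested. The median of the 15 was -0.12 on the log2 scale, beside 0.00 for all genes.

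None of the 14 proteases and cofactors tested passed under GSK-J4 (1 had an unadjusted DESeq2 p under 0.05, and edgeR called 0), and none of 17 passed after the cytokine pulses (4 and 0). PLAT stood at 11660 ± 1390 under GSK-J4, and its log2 fold change was 0.0047 against vehicle. Of 5 receptors of inhibitors and proteases, among them LRP1, none passed DESeq2's test in the comparisons with vehicle, where 1 in each had an unadjusted p under 0.05 and edgeR called 0. PNPLA2, known as a receptor of pigment epithelium-derived factor, was called in other comparisons. It averaged 1726 ± 61.6 normalized counts in unstimulated, 1592 ± 85.5 in vehicle, 1740 ± 57.7 in belinostat and 1416 ± 56.9 in GSK-J4 cells. The level was higher under belinostat than under GSK-J4 (log2 difference 0.30, DESeq2 adjusted p 3.38e-07) and lower under GSK-J4 than in unstimulated cells (-0.28, adjusted p 3.32e-06), without overlap in either, and both calls held in all 13 alternatives. Between the compounds 2 of 16 other inhibitors (1 higher, 1 lower under belinostat) and 5 of 16 proteases and cofactors (all lower) were called. Of all genes tested, 6.18% were called higher and 6.01% lower in that comparison, so the share of other inhibitors called (12.5%) was near that of all genes. edgeR called 1 of the other inhibitors and 3 of the proteases and cofactors.

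**Figure D5:**
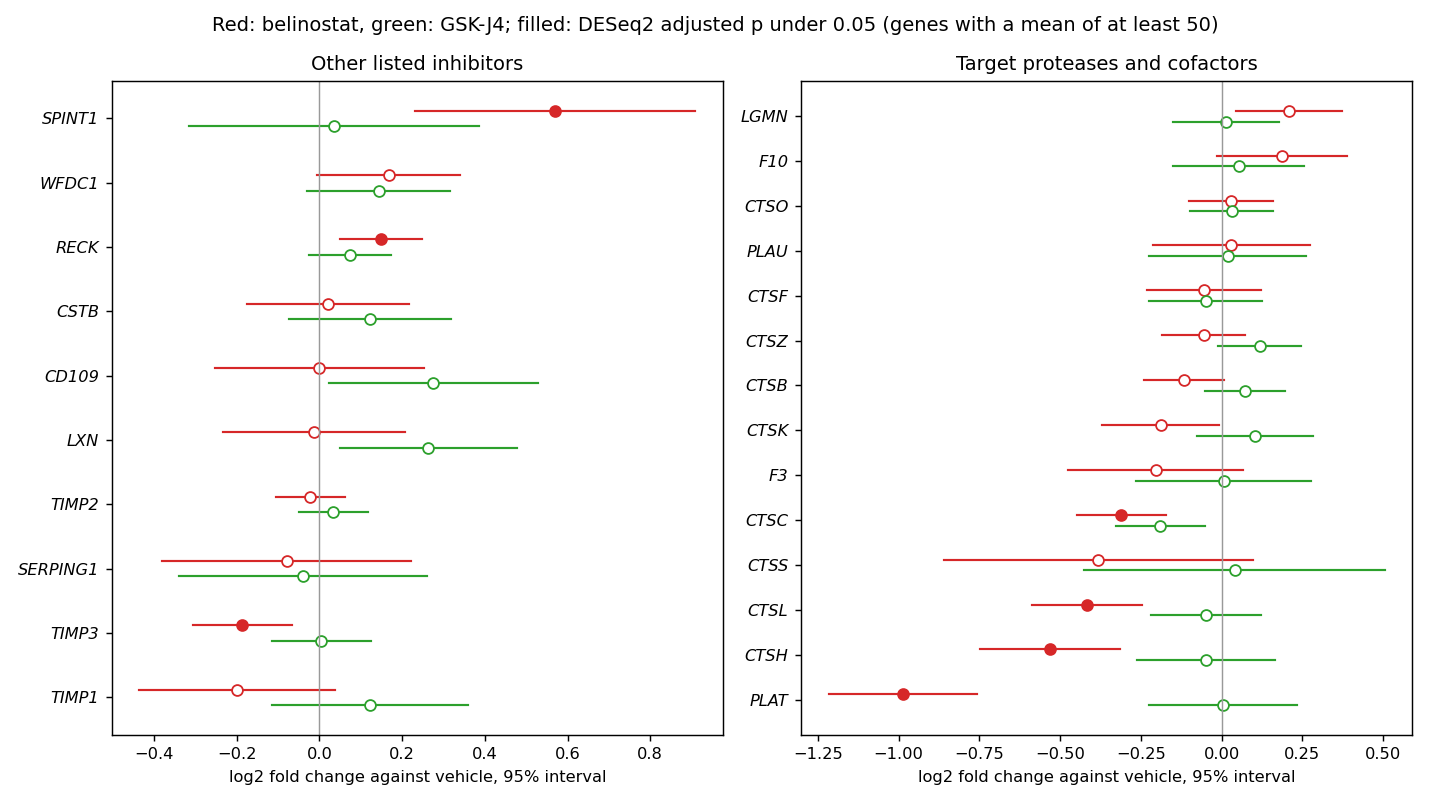
Log2 fold changes against vehicle with 95% intervals under belinostat (red) and GSK-J4 (green) for other inhibitors (left) and target proteases and cofactors (right) that were tested and averaged at least 50 normalized counts; filled points passed DESeq2's test. PLAT, CTSH, CTSL and CTSC fell under belinostat, and no green point is filled.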

How the data were processed

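RNA was analysed from 16 Ccd18-Co cultures (4 groups of 4). Per the study's methods and the submitters' processing notes, the authors checked reads with FastQC 0.11.9 and MultiQC 1.14 and quantified them with kallisto 0.48.0, with hg38 named as the build. The transcriptome release is not given in the sources used here. Per gene symbol, the deposited table gives estimated counts, 28% of them with decimals, which the authors had not scaled to library size. They were rounded here to whole numbers. Of 40663 symbols, 26907 had a count. The columns of unstimulated cells read none where the titles read DMSO, and were matched by replicate number.

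DESeq2 1.42.0 (R 4.3.3) was fitted on all 16 libraries with a single factor (group), size factors by the median of ratios (0.819 to 1.13), Wald tests, unshrunken fold changes and adjustment over all genes, in 6 contrasts. Alternatives were edgeR 4.0.16 (quasi-likelihood), TMM or total-count size factors, a filter of at least 10 counts in at least 4 libraries, fitting only the groups compared, and leaving out each replicate. The tests were checked on counts simulated from DESeq2's fitted means and dispersions, with known changes put into the belinostat group. The simulation set no library apart from its group, so it cannot speak to calls that rest on belinostat replicate 17 or vehicle replicate 16.

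The members and lists were chosen with earlier results of these data known. Text names were all members, up to 4 called genes per list and comparison with a mean of at least 50, the CST1 paralogs, and the 2 nearest profiles of members whose group means span 1 on the log2 scale. One gene of the lists is not reported here. Markers of cell types are named as checks of the label. Loci and lengths are from GENCODE 44 on GRCh38. Replicates were compared over genes with at least 40 counts per pair, and their mean squared deviation was 2.97 to 31.6 times sampling noise, so none was counted as a repeat. Whether replicates came from separate experiments is not given, and p-values measure only the spread between these cultures. No column went unused.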

Additional observations from a re-analysis of the deposited data

Results flagged for a closer look

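In groups of 4 libraries, a sample was set apart where its gap to the nearest other sample, as a share of the group's range, exceeded Dixon's 95% critical value. Of 28 sets of 4 (7 genes in 4 groups), 3 met this, and chance alone gives about 1 in 20. A2M measured 885 normalized counts in belinostat replicate 17, where the other belinostat libraries had 2659 to 2917. TFPI2 measured 3610 in the same library, where the others had 1783 to 1930. CST1 measured 320 in vehicle replicate 16, where the others had 122 to 142. Belinostat replicate 17 was also the library with the lowest mean correlation to its group (0.9957), and its part in the A2M and TFPI2 values was not tested further than by leaving it out.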

How the results depend on the processing

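Of 546 alternative values for 42 log2 fold changes of the 7 genes, 492 kept direction and side of the threshold, 35 lost a call, 5 gained one and 14 changed sign. None of these 14 was called. For vehicle against unstimulated, SERPINE2 was -0.0008 under edgeR. Leaving out 1 replicate gave, in that comparison, -0.084 to 0.040 for CST3, -0.026 to 0.064 for SERPINE2, -0.013 to 0.042 for TFPI and -0.40 to 0.019 for TFPI2. It gave -0.24 to 0.32 for TFPI2 in belinostat and -0.029 to 0.12 for CST3 in GSK-J4 against unstimulated.

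The number of the 7 genes called after the pulses was 1, but 0 under edgeR and 0 to 1 with a replicate left out. Under GSK-J4 it was 5, but 3 under edgeR, 3 to 5 with a replicate left out and 6 when only the groups compared were fitted. Of the other listed inhibitors, 0 were called after the pulses, 1 with TMM size factors and 0 to 1 with a replicate left out. Under belinostat these were 3, with 1 under edgeR, 1 when only the groups compared were fitted and 0 to 4 with a replicate left out. Under GSK-J4 they were 0, and 1 when only the groups compared were fitted. The causes were not tested.

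Over all genes, edgeR called 166 where DESeq2 called 282 after the pulses and 91 where it called 253 under GSK-J4. Fitting only the groups compared gave 542 under GSK-J4, and 876 in place of 1461 for belinostat against unstimulated. Leaving out a replicate gave 180 to 295 calls after the pulses and 132 to 193 under GSK-J4.

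No paired analysis was possible because the groups share no replicate number. With 4 cultures per group and counts near 100 in CST1, small changes could not be resolved.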
